A study of Mus musculus with 20 samples.

Results

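Immediate early and Myc family transcripts were examined, 10 of the 23284 genes in the deposited files: Fos, Jun, Junb, Jund, Atf3, Egr1, Ier2, Ier3, Myc and Mycn. They were chosen by name as immediate early and Myc family genes whose mRNAs are known to be short-lived. The experiment was RNA immunoprecipitation followed by sequencing (RIP-Seq) in mouse embryonic stem cells (ESCs), in which Tet1 or Tet2, enzymes that oxidise methylated cytosine, carried a Flag tag. RNA recovered with anti-Flag antibody (IP) was set against RNA that had not been immunoprecipitated (input). The Tet1-KI line (tagged Tet1) gave 2 IP and 2 input libraries, the Tet2-KI line (tagged Tet2) gave 4 and 4, and the Tet2dRBD-KI line (tagged Tet2 with a deletion of 54 amino acids in the RNA-binding domain, here Tet2ΔRBD) gave 4 and 4, which made 20 libraries.

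All libraries came from undifferentiated ESCs grown with serum and leukemia inhibitory factor. Every line carried the triple tag Flag, HA and Twin-Strep at the C terminus of the endogenous Tet protein, and all lines were made by picking clones after CRISPR knock-in. The labels do not say whether replicates were separate cultures, so p-values measure the spread between these libraries. The paper's methods describe IP from cytoplasmic extract and input from total RNA, and the part that this played in any ratio was not tested. No IgG or untagged IP was analysed here.

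Immediate early genes are switched on within minutes of growth factor, serum or stress signals, without new protein synthesis, by factors such as SRF and CREB that already sit in the cell. Fos and Jun family proteins pair to form the transcription factor AP-1, and Atf3, Egr1, Myc and Mycn are transcription factors too. Their mRNAs decay quickly, in part because proteins bind AU-rich elements, stretches holding the pentamer AUUUA, in the 3′ untranslated region (UTR). In ESCs, Myc and Mycn promote growth and self-renewal. mRNA decay itself was not measured in these libraries.

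Copies of this pentamer, ATTTA on the DNA strand that matches the mRNA, were counted in the longest annotated 3′ UTR of each gene. The annotation was gencode vM1 of NCBIM37, the same assembly as mm9, the build of the deposited files. Of the 10 transcripts, 9 held ATTTA, all but Ier2, compared with 61.9% of 18852 genes and 62.8% of the 5259 genes with a 3′ UTR in the same range of length. The median density was 2.89 copies per kb in the 10 transcripts, 1.02 over all genes and 1.22 over the genes in that range of length. Ier3 had the most copies, 5 in 613 bases, and Fos and Jun had 4 each. Overlapping copies were counted. The nonamer TTATTTATT, which contains ATTTA, was found in Fos alone, in 6.46% of all genes and in 4.70% of those in that range of length. Junb, Jund, Egr1 and Atf3 held copies as well, which are not shown. Stretches of 29 bases around copies in Fos, Ier3, Jun, Myc and Mycn are shown, with each ATTTA in capitals. They lie in the 3′ UTR exon of the gene named, at chr12:86818049-86818077 (plus strand) for Fos, chr17:35959426-35959454 (plus strand) for Ier3, chr4:94716241-94716269 (minus strand) for Jun, chr15:61821690-61821718 (plus strand) for Myc and chr12:12942955-12942983 (minus strand) for Mycn.
Fos: attgtgttttcaATTTATTTAttaagatg
Ier3: tgtctaattaatATTTAtgtATTTAtgta
Jun: tccagaaaggatATTTAagaaaatacaat
Myc: taacagatttgtATTTAattgttttttta
Mycn: caaaatgtatatATTTAgtgctgcacctt
The paired copies in Fos overlap, those in Ier3 are 3 bases apart, and the others shown stand singly within their stretch. A copy of ATTTA describes the letters present and does not show that a protein was bound.

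Library totals lay between 21078995 and 37576638 expected counts. The deposited names fall into 3 numbered library sets that the labels do not mention, here called A (replicate 1 of Tet2 and Tet2ΔRBD), B (replicate 2 of both) and C (replicates 3 and 4 of both and all Tet1 libraries). All 10 ESC markers checked, Pou5f1, Nanog and Sox2 among them, were above a mean of 1 TPM in IP and input of each line, and summed to between 13562 and 17356 TPM in the inputs. The list included Tet2, which had the lowest mean in each line and was itself tagged in the Tet2 and Tet2ΔRBD lines. The 8 fibroblast markers summed to at most 66.2 TPM in any input. In IP and input of each line, 4 of the 8 had a mean of at least 1 TPM, and Lum was lowest, at 0 or near it. Tet1 mRNA was at 13.6 to 17.3 TPM in Tet1 inputs, above the 8.54 to 12.04 TPM of Tet2 inputs, whereas Tet2ΔRBD inputs (8.66 to 17.1 TPM) overlapped both. Tet2 mRNA (2.49 to 9.21 TPM) overlapped between lines.

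In the inputs the 10 transcripts covered a wide range of abundance. TPM gives each transcript as a share of all transcripts in the library, corrected for transcript length, so that levels of different genes can be set side by side. Ier2, a nuclear protein of the immediate early response, was the most abundant, with a mean of 164 ± 54.1 TPM (SD, n = 10 inputs). Mycn followed at 88.9 ± 39.5 TPM, then Jund at 51.9 ± 13.3, Ier3 (a regulator of stress-induced cell death) at 50.6 ± 15.7, Junb at 30.6 ± 9.89, Myc at 21.5 ± 12.7 and Egr1 (a zinc finger factor) at 12.1 ± 10.2. Fos, Jun and Atf3 were lowest at 5.63 ± 5.14, 4.83 ± 3.68 and 3.51 ± 1.61 TPM. Neighbours in this order overlapped across the inputs, as Jund and Ier3 did at 36.2 to 72.3 and 32.2 to 76.9 TPM. The lowest member count in any input was 49 expected counts, for Atf3.

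The levels differed greatly between library sets, and not in the same direction for each transcript. In set A, Fos and Jun were high and Myc and Ier2 were low, whereas in set B most of the 10 were above set C. Fos stood at 14.5 TPM in Tet2 and 15.7 in Tet2ΔRBD in set A, 4.74 and 5.75 in set B, and 2.22 to 3.13 in the 6 inputs of set C. The 3 sets did not overlap for Fos. Jun showed the same order, with 11.7 and 10.9 TPM in set A, 3.74 and 6.04 in set B and 0.98 to 3.77 in set C. Myc was at 2.71 and 5.84 TPM in set A, 28.2 and 45.5 in set B and 13.2 to 29.9 in set C. Set A therefore had the lowest Myc of all inputs and the highest Fos and Jun.

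**Figure D1:**
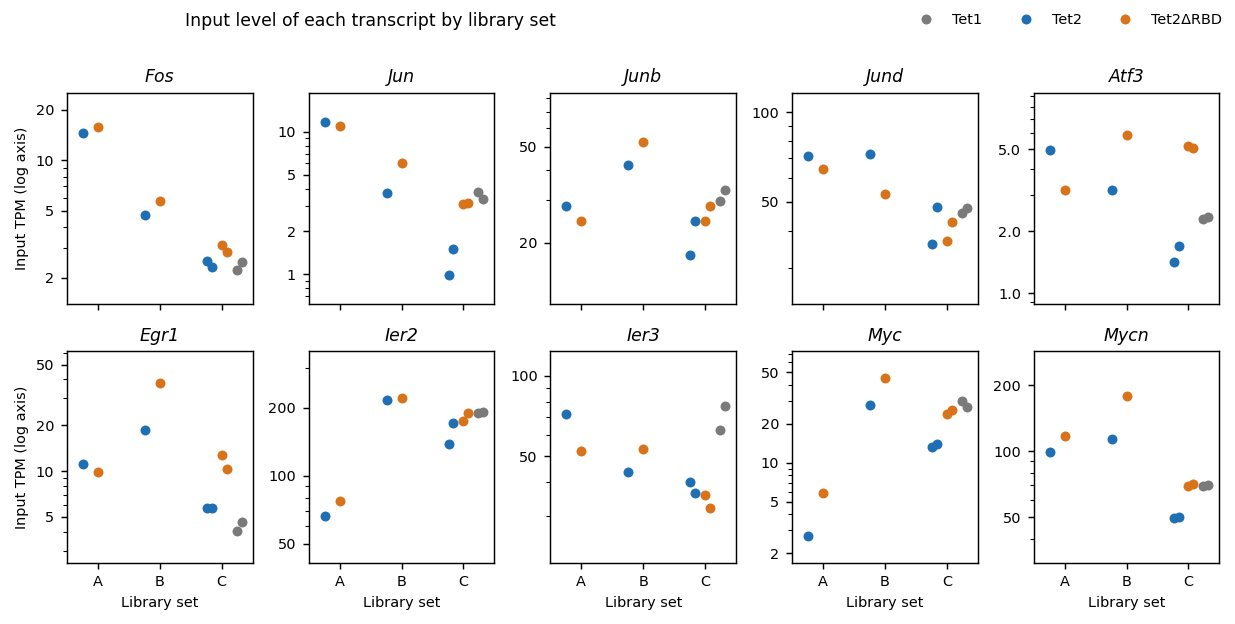
Input TPM (log axis, a separate range for each transcript) of the 10 transcripts in the 10 input libraries, by library set (A, B and C) and line (colour); each point is 1 library. Fos lies at 14.5 to 15.7 TPM in set A and at 2.22 to 3.13 in set C, whereas Myc lies at 2.71 to 5.84 in set A and at 13.2 to 29.9 in set C.

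Tested with edgeR over all genes, with line and library set in the model, 9 of the 10 transcripts differed between library sets at a Benjamini-Hochberg adjusted p under 0.05, all but Atf3. The background was as high, since 82.1% of 13310 genes passed. What distinguished the sets, such as day, culture or processing, cannot be told apart, nor can fewer cells expressing a gene and less RNA per cell in such bulk samples. Between sets A and C, 5 transcripts were higher in A and 2 lower, where 61.7% of all genes were called, 31.2% higher and 30.5% lower. Fos was higher by 2.57 ± 0.14 (log2, ± SE; edgeR adjusted p = 1.56e-06) and Jun by 2.64 ± 0.28 (edgeR adjusted p = 4.48e-05). These fitted differences were larger in size than those of 97.3% and 97.7% of the genes tested. Myc differed by -2.11 ± 0.11 (edgeR adjusted p = 1.43e-06) and Ier2 by -1.14 ± 0.09 (edgeR adjusted p = 9.62e-06). Jund, Ier3 and Mycn were higher in set A by 0.82, 0.86 and 0.96 (log2), whereas Junb, Egr1 and Atf3 were not called. Without Tet2 replicate 1, Ier3 was at 0.60 (edgeR adjusted p = 0.0674).

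Between sets B and C, 8 transcripts were higher in B and none lower, where 57.9% of all genes were called, 29.5% higher and 28.4% lower. Egr1 differed most, by 1.66 ± 0.24 (log2, ± SE; edgeR adjusted p = 0.000492), with 18.5 TPM in Tet2 and 38.2 in Tet2ΔRBD in set B and 4.02 to 12.7 TPM in set C. The groups did not overlap. Mycn differed by 1.22 ± 0.11 (edgeR adjusted p = 3.12e-05), from 49.8 to 70.7 TPM in set C to 114 and 179 TPM in set B. Ier2, Jund, Fos, Myc, Junb and Jun differed by 0.33 to 1.17 (log2), and Ier3 and Atf3 were not called. Between sets A and B, 6 transcripts were called against a background of 59.8% of genes (29.5% higher and 30.3% lower in A), with Fos and Jun higher in A and Myc, Ier2, Egr1 and Junb higher in B. The difference of Myc there, -3.01 ± 0.13 (edgeR adjusted p = 4e-06), was larger in size than that of 98.9% of genes. Egr1 and Junb were not called between A and B without Tet2ΔRBD replicate 1 (-0.56 and -0.37) or replicate 2 (-0.84 and -0.49). Over all inputs, the median range of the 10 transcripts was 1.78 on the log2(TPM + 1) scale, beside 1.27 over the 11784 genes with a mean input of at least 1 TPM.

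**Figure D2:**
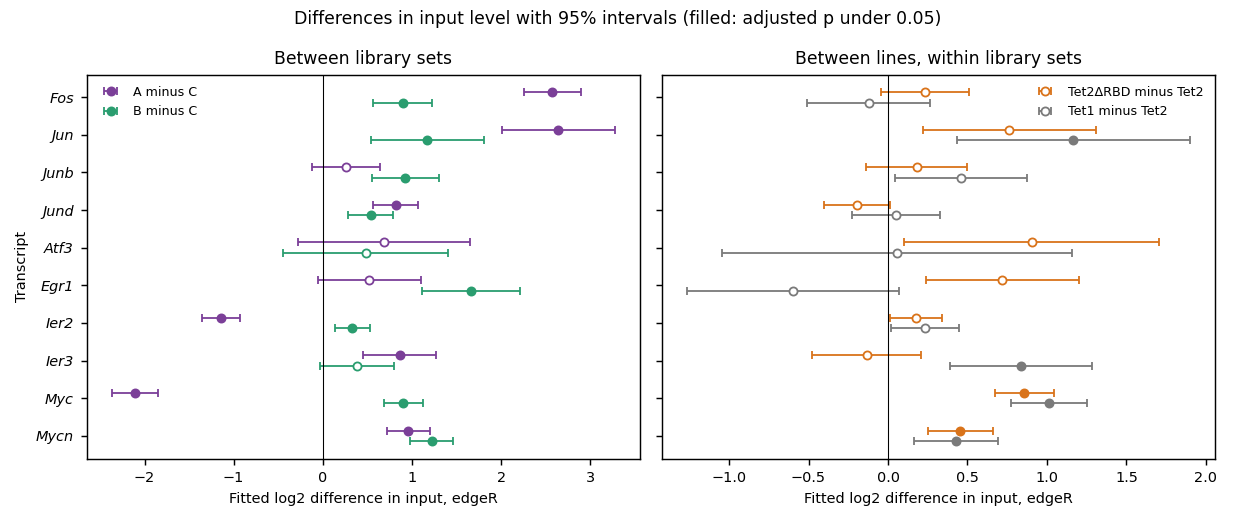
Fitted log2 differences in input level between library sets (left) and between lines with library set in the model (right) from edgeR, with 95% intervals; filled points have an adjusted p under 0.05. In set A, Fos and Jun lie at 2.57 and 2.64 and Myc at -2.11 relative to set C.

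The balance within families shifted with the library set as well. Jund made up 47.8% to 65.9% of the summed TPM of Jun, Junb and Jund in the inputs. The share of Jun was 10.5% and 10.9% in set A and 1.78% to 5.42% elsewhere. Mycn exceeded Myc in all 10 inputs, by 36.6-fold in Tet2 and 20.1-fold in Tet2ΔRBD in set A, by 4.06-fold and 3.93-fold in set B, and by 2.33-fold to 3.77-fold in set C. The IP libraries kept the same pattern, with Mycn over Myc at 44.2-fold and 18.2-fold in set A and 1.91-fold to 2.92-fold in sets B and C. These ratios rest on TPM in 2 libraries a set in A and B and were not tested.

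Other genes of the response were counted from a list of 30 immediate early genes, of which 24 passed the filter in the inputs. In set A, 17 were higher and 1 lower than in set C, with a median difference of 0.77 (log2) beside -0.01 over all genes. Gadd45g and Ier5 led, at 2.40 ± 0.32 and 2.37 ± 0.17 (log2, ± SE; edgeR adjusted p = 0.000185 and 5.34e-06). In set B, 17 were again higher and 1 lower, with a median of 0.71. Of all genes, 31.2% were called higher and 30.5% lower in set A, and 29.5% higher and 28.4% lower in set B. The same shares stand beside the counts of the lists that follow. Of 10 long-lived transcripts such as Actb and Gapdh, 7 were higher and 2 lower in set A, with a median of 1.06, so a raised median was not particular to short-lived transcripts. Of the Myc network, which comprises the partner Max, its repressors and cofactors, 7 of 15 were higher and 2 lower in set A, with a median of 0.55. Of the kinases and factors upstream of immediate early genes, such as Srf, Elk1 and Creb1, 6 of 16 were higher and 1 lower. Markers of other cells moved as well: of 5 fibroblast markers tested, 1 was higher and 4 lower in set A, and 3 were higher in set B, and of 8 differentiation markers, 5 were higher and 2 lower in set A, and 4 were higher in set B. Of 6 nuclear noncoding RNAs such as Malat1 and Neat1, 1 was higher and 4 lower in set A, and 1 higher and 3 lower in set B. Their part in the differences was not tested.

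The input level was then compared between lines, which asks whether the cells differed before IP. Myc and Mycn were higher in the Tet2ΔRBD line than in the Tet2 line, 2 of the 10 transcripts, where 3.14% of all genes were called, 1.35% higher and 1.79% lower. Myc stood at 2.71, 28.2, 13.2 and 14.1 TPM in Tet2 replicates 1 to 4 and at 5.84, 45.5, 23.7 and 25.6 TPM in Tet2ΔRBD replicates 1 to 4. It was higher in Tet2ΔRBD at each of the 4 replicate numbers, by 1.61-fold to 2.15-fold, although the groups overlapped across library sets. The fitted difference was 0.86 ± 0.08 (log2, ± SE; edgeR adjusted p = 0.00278). Mycn stood at 99.2, 114, 49.8 and 50.1 TPM in Tet2 and at 117, 179, 69.4 and 70.7 TPM in Tet2ΔRBD. It was higher at all 4 numbers, by 1.18-fold to 1.56-fold, with a fitted difference of 0.46 ± 0.09 (edgeR adjusted p = 0.0334). With the replicate number as a block in place of the library set, edgeR called neither, at an adjusted p = 0.0693 for Myc and 0.182 for Mycn, and the fitted differences were 0.86 and 0.46.

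Jun, Egr1 and Atf3 gave differences of similar size between these lines but were not called. Egr1 was at 11.1, 18.5, 5.69 and 5.74 TPM in Tet2 inputs and at 9.88, 38.2, 12.7 and 10.3 TPM in Tet2ΔRBD inputs, a fitted difference of 0.72 ± 0.21 (edgeR adjusted p = 0.109). It was higher in Tet2ΔRBD at 3 of 4 numbers, all but the pair in set A. Atf3, a stress-induced AP-1 partner, was at 4.92, 3.17, 1.41 and 1.69 TPM in Tet2 and at 3.18, 5.83, 5.20 and 5.04 TPM in Tet2ΔRBD (0.90 ± 0.35, edgeR adjusted p = 0.207). Here too set A ran the other way. Within set C alone, an alternative chosen after the data had been seen, Jun, Egr1, Myc, Mycn and Atf3 were all called, with Atf3 at 1.65 (log2; edgeR adjusted p = 0.00124). In that fit 2715 of 12999 genes were called, beside 418 of 13310 with all inputs. Leaving out both lines' set A libraries gave the same 5 names, beside 635 of 13119 genes. Leaving out replicate 3 or 4 of either line left Myc alone, beside 33 to 104 genes. Of the 24 other immediate early genes tested, 2 were called, both higher in Tet2ΔRBD: Cyr61 at 1.28 ± 0.16 and Ctgf at 1.07 ± 0.20 (log2, ± SE; edgeR adjusted p = 0.00864 and 0.0292). Both encode secreted matrix proteins. The 10 markers of differentiated cells, Gata6 and Sox17 among them, summed to 55.5 to 116 TPM in Tet2ΔRBD inputs and 23.8 to 86.4 TPM in Tet2 inputs. In each line 6 of the 10 had a mean input of at least 1 TPM, and Afp was lowest, near 0. Of the 8 tested, 2 were higher in Tet2ΔRBD and 0 lower, where 1.35% of all genes were called higher. Their median difference was 1.13 (log2), beside 0.02 over all genes. The part that this played in the differences was not tested.

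Tet1 inputs, which lie in set C alone, differed from Tet2 inputs in Jun, Ier3, Myc and Mycn, 4 of the 10 transcripts, all higher in Tet1, where 31.5% of all genes were called, 17.5% higher and 14.0% lower. Myc was at 29.9 and 26.8 TPM in Tet1, beside 13.2 and 14.1 in the Tet2 inputs of set C, which did not overlap (fitted 1.01 ± 0.11, log2, ± SE; edgeR adjusted p = 0.000401). Ier3 was at 62.6 and 76.9 TPM in Tet1 and at 40.3 and 36.4 in set C of Tet2 (0.84 ± 0.20, edgeR adjusted p = 0.0119). Jun was at 3.77 and 3.40 TPM beside 0.98 and 1.5, with a fitted difference of 1.17 ± 0.32 (edgeR adjusted p = 0.0240). Mycn was at 69.5 and 70.4 TPM beside 49.8 and 50.1 (0.43 ± 0.12, edgeR adjusted p = 0.0230). The call for Myc held with any single Tet1 or Tet2 replicate left out. Jun and Mycn were not called without Tet1 replicate 1 or 2 or Tet2 replicate 3 or 4, and Ier3 was not called without Tet1 replicate 2. The Tet1 and Tet2ΔRBD comparisons share the Tet2 inputs. Of the 10 long-lived transcripts, 7 were higher in Tet1 and none lower, with a median difference of 0.46 (log2). Of 8 differentiation markers tested, 5 were higher in Tet1 (median 1.03), and of 5 fibroblast markers, 3 were lower (median -1.15). Their part in the differences was not tested.

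The IP libraries followed these input levels closely. Over the 10 transcripts and 10 pairs of IP and input, log2(IP/input) from TPM + 1 ran from -0.82 to 0.86, and 90 of the 100 values lay within 1.5-fold of equality. On this scale 78 of the 100 values were above 0, but so were those of most genes: the median over the 11784 expressed genes was between 0.01 and 0.38 in the 10 pairs. By the study's rule, TPM in IP above input, read here as in every pair, 6 transcripts passed in Tet1 (Jun, Junb, Jund, Ier2, Ier3 and Myc), against 50.5% of expressed genes. In Tet2, 5 passed (Jun, Jund, Ier2, Ier3 and Atf3), against 47.0%. In Tet2ΔRBD, 4 passed (Jund, Ier3, Myc and Atf3), against 31.0%. Jund and Ier3 passed in all 3 lines. Below input in every pair were 3 transcripts in Tet1 (Fos, Egr1 and Atf3), against 32.3% of expressed genes, and 0 in Tet2 and in Tet2ΔRBD, against 13.4% and 9.57%. None of the 10 reached 1.5-fold in every pair of any line. After centring each pair on its median, 6, 1 and 3 passed in Tet1, Tet2 and Tet2ΔRBD, against 42.1%, 27.9% and 18.7% of expressed genes, and Jund passed in each.

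**Figure D3:**
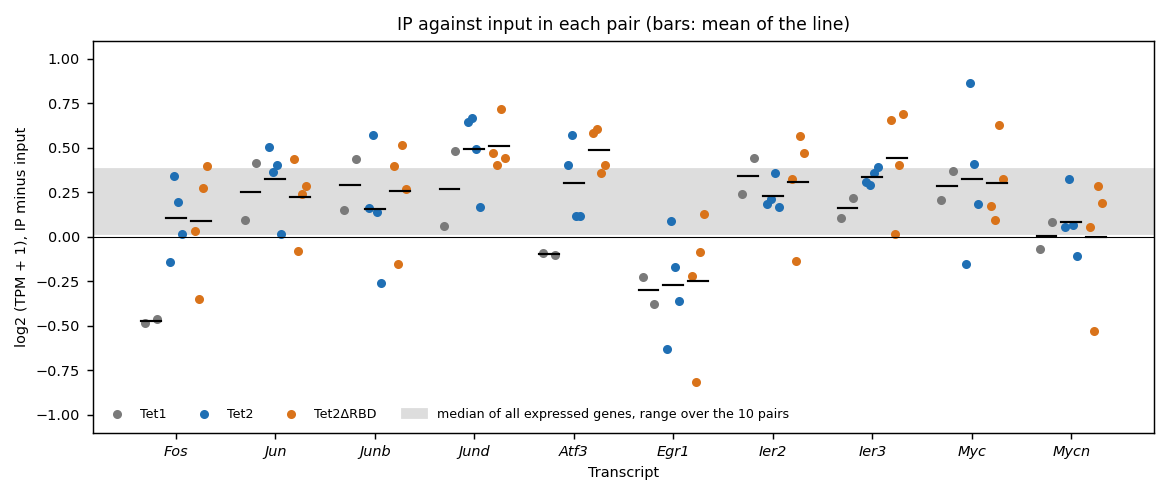
log2(IP/input) from TPM + 1 for each of the 10 IP and input pairs, by transcript and line (colour); bars are means of the line, and the grey band spans the medians of all expressed genes over the pairs (0.01 to 0.38). Egr1 lies below 0 in 8 of its 10 pairs, and Fos is at -0.49 and -0.46 in Tet1.

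Jund, the Jun protein that most cells express without stimulation, was at 45.9 and 47.6 TPM in Tet1 input and at 47.8 and 66.9 in Tet1 IP. In Tet2 it was at 71.5, 72.3, 36.2 and 48.1 TPM in input and at 112, 115, 51.3 and 54.1 in IP. In Tet2ΔRBD it was at 64.6, 53.2, 36.9 and 43.0 TPM in input and at 89.9, 70.8, 61.2 and 58.7 in IP. IP thus exceeded the matching input of Jund in 10 of 10 pairs, although IP and input overlapped across pairs in Tet2 and Tet2ΔRBD. Ier3 did so as well, with log2(IP/input) of 0.02 to 0.69 over the 10 pairs. Myc was at 29.9 and 26.8 TPM in Tet1 input and at 34.6 and 34.9 in Tet1 IP. In Tet2 IP it was at 2.33, 52.1, 17.9 and 16.1 TPM, and in Tet2ΔRBD IP at 6.70, 48.5, 37.1 and 32.3 TPM. The low level of Myc in set A was thus seen in IP as in input. Mycn, with IP at 66.2 and 74.5 TPM in Tet1, 103, 143, 52.1 and 46.4 in Tet2, and 122, 123, 84.8 and 80.8 in Tet2ΔRBD, had log2(IP/input) on both sides of 0 in each line. Atf3 was above input in all 4 pairs of Tet2 (0.12 to 0.57) and of Tet2ΔRBD (0.36 to 0.61) and below it in both Tet1 pairs (-0.09 and -0.10). Junb and Ier2 ran above input in 8 and 9 of the 10 pairs.

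Fitted with edgeR on counts, where the median gene lay between -0.04 and 0.003 (log2) in the 3 lines, no transcript was called above input, and Egr1 alone was called below it. With limma on log2(TPM + 1), where the median gene lay above 0, Jund and Ier3 were called above input in Tet2 and Jund, Ier3 and Atf3 in Tet2ΔRBD, and Egr1 was not called. Over all genes, limma called 5914 of 13710 in Tet2 and 3853 of 13710 in Tet2ΔRBD. In Tet2, edgeR called 1 of 10 transcripts, where it called 33.1% of all genes, 14.6% higher and 18.5% lower. Egr1 was at 11.1, 18.5, 5.69 and 5.74 TPM in input and at 6.82, 19.8, 4.94 and 4.25 TPM in the matching Tet2 IP. The ratio fell in 3 of 4 pairs and was slightly above 0 in set B. The fitted log2(IP/input) was -0.63 ± 0.15 (± SE; edgeR adjusted p = 0.0111). Without Tet2 replicate 1, the set A pair, edgeR gave -0.43 (adjusted p = 0.0885) and no transcript was called. With all libraries, limma on log2(TPM + 1) gave -0.27 (adjusted p = 0.198). The other 9 transcripts had fitted values from -0.23 (Mycn) to 0.18 (Jund), with edgeR adjusted p from 0.115 to 0.878.

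In Tet2ΔRBD, 1 of 10 transcripts was called, where 19.5% of all genes were called, 7.40% higher and 12.1% lower. Egr1 was at 9.88, 38.2, 12.7 and 10.3 TPM in input and at 8.33, 21.2, 11.9 and 11.3 TPM in IP. The fitted value was -0.54 ± 0.15 (log2, ± SE; edgeR adjusted p = 0.0323), and the largest drop was in set B. The call was not made without Tet2ΔRBD replicate 1, 2 or 3, where Egr1 was at -0.50, -0.37 and -0.58 (edgeR adjusted p = 0.119, 0.150 and 0.0989). With all libraries, limma on log2(TPM + 1) gave -0.25 (adjusted p = 0.262). Jund (0.24 ± 0.10), Atf3 (0.30 ± 0.13) and Mycn (-0.28 ± 0.11) had the next largest values, with edgeR adjusted p of 0.104, 0.117 and 0.0940. An annotated gene, Gm17507, overlaps Egr1 on the opposite strand, as BC042782 does Jun and Gm11175 does Jund. Whether the counting used strand is not given in the sources used here, so reads of these pairs cannot be told apart.

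In Tet1, edgeR called 0 of the 10 transcripts, where 5.90% of all genes were called, 2.72% higher and 3.18% lower. Without adjustment 2 had a p under 0.05, beside 3224 of 13710 genes. DESeq2 called 1 and limma on log2(TPM + 1) called 0, beside 1578 and 636 genes. Fos, the AP-1 partner of the Jun proteins, came nearest. It was at 2.22 and 2.48 TPM in Tet1 input and at 1.30 and 1.53 TPM in Tet1 IP, which did not overlap, with a fitted log2(IP/input) of -0.88 ± 0.23 (± SE; edgeR adjusted p = 0.0525). These levels rest on few reads, 74 and 82 expected counts in Tet1 input and 43 and 53 in Tet1 IP. Egr1 was at 4.02 and 4.61 TPM in input and at 3.29 and 3.32 TPM in IP (-0.53 ± 0.23, edgeR adjusted p = 0.187). The fitted value of Egr1 was thus below 0 in all 3 lines, and passed the threshold in Tet2 and Tet2ΔRBD. DESeq2 called Fos (adjusted p = 0.0394). The other 8 transcripts lay between -0.29 (Atf3) and 0.19 (Ier2).

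**Figure D4:**
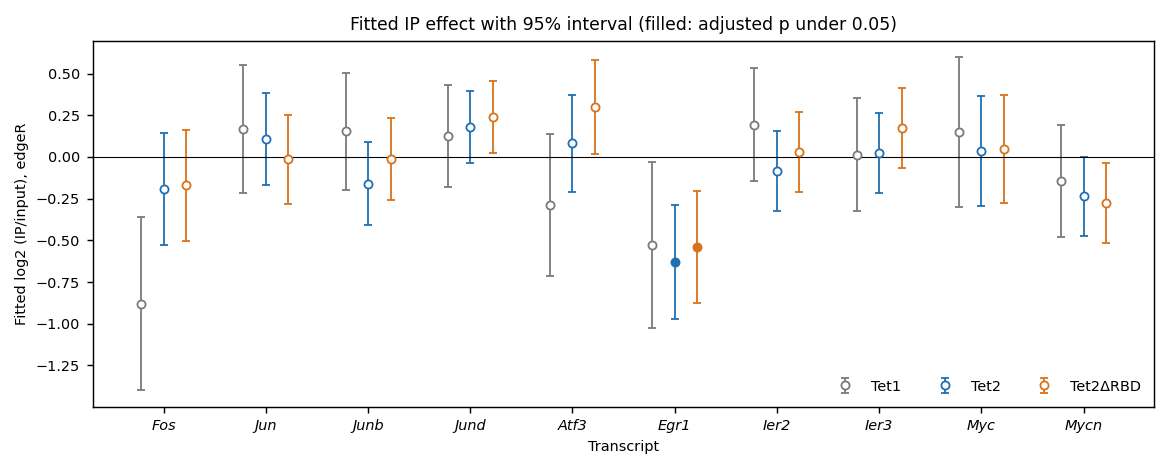
Fitted log2(IP/input) from edgeR for each transcript in Tet1, Tet2 and Tet2ΔRBD (colour), with 95% intervals; filled points have an adjusted p under 0.05. Egr1 is filled in Tet2 (-0.63) and Tet2ΔRBD (-0.54), and Fos in Tet1 is at -0.88 with an adjusted p of 0.0525.

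Whether recovery depended on the RNA-binding domain was asked by subtracting log2(IP/input) in Tet2ΔRBD from that in Tet2. None of the 10 transcripts was called by edgeR, DESeq2 or limma, and none had an unadjusted p under 0.05 in edgeR, where 0.0219% of 13710 genes were called. The fitted differences ran from -0.22 (Atf3) to 0.12 (Jun) on the log2 scale. For Myc the difference was -0.01, with a 95% interval from -0.47 to 0.44, and for Egr1 -0.09, with an interval from -0.57 to 0.39. These intervals leave room for differences of about that size in either direction. At replicate number 2 the ratio was higher in Tet2 for 9 of the 10 transcripts, all but Atf3, by 0.26 to 0.91 (log2), whereas at number 4 it was lower in Tet2 for all 10, by 0.14 to 0.53. The median of all expressed genes differed between these pairs too, by 0.37 at number 2 and by -0.06 at number 4. Relative to it, 6 transcripts were higher in Tet2 at number 2 and 4 lower, and all 10 were lower at number 4. At numbers 1 and 3 the ratio was lower in Tet2 for 8 and 9 transcripts. Relative to the median of all expressed genes, which differed by -0.02 and -0.06 there, 7 and 8 were lower.

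Between Tet1 and Tet2, none of the 10 transcripts was called by edgeR, DESeq2 or limma. With all libraries, the share called by edgeR over all genes was 0%. Fos alone had an unadjusted edgeR p under 0.05, with a fitted difference of -0.69 ± 0.28 (log2, ± SE; edgeR adjusted p = 0.940). Its ratio was -0.49 and -0.46 in the Tet1 pairs and -0.14, 0.34, 0.20 and 0.01 in the Tet2 pairs, which did not overlap. Over all genes, 517 had an unadjusted p under 0.05, DESeq2 called 13, and limma on log2(TPM + 1) called 6. The Tet1 pairs lie in set C alone, whereas the Tet2 pairs cover sets A, B and C. With set C libraries only, edgeR called 314 of 13379 genes and 0 of the 10 transcripts.

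The same lists were counted in the IP comparisons. Of 26 other immediate early genes tested, 4 were above and 6 below input in Tet2, 2 above and 1 below in Tet2ΔRBD, and 1 above and 2 below in Tet1. These were 38.5%, 11.5% and 11.5% of the list, beside 33.1%, 19.5% and 5.90% of all genes. Klf10, a zinc finger factor, was below input in Tet1, Tet2 and Tet2ΔRBD, at -0.64 ± 0.14, -0.79 ± 0.10 and -0.64 ± 0.10 (log2, ± SE; edgeR adjusted p = 0.0327, 0.000434 and 0.00252). Of 9 AP-1 partners tested, 2 were below input in Tet1, 2 in Tet2 and 3 in Tet2ΔRBD, and none above, where 3.18%, 18.5% and 12.1% of all genes were called lower. Atf4, a stress response factor, was at -0.70 ± 0.13, -0.88 ± 0.09 and -0.60 ± 0.09 in the 3 lines (edgeR adjusted p = 0.0222, 0.000173 and 0.00248).

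mRNAs for proteins that bind AU-rich elements were counted because they act on transcripts of this kind. Of 7 such genes, 5 were below input in Tet2, 5 in Tet2ΔRBD and 2 in Tet1, and none above, where 18.5%, 12.1% and 3.18% of all genes were called lower, with median fitted values of -0.62, -0.48 and -0.39 (log2) beside -0.04 to 0.003 over all genes. Elavl1, which stabilises AU-rich mRNAs, was at -0.63 ± 0.14 in Tet1, -0.81 ± 0.10 in Tet2 and -0.65 ± 0.10 in Tet2ΔRBD (edgeR adjusted p = 0.0340, 0.000403 and 0.00237). In the Myc network, Fbxw7, the ubiquitin ligase subunit that marks Myc protein for destruction, was above input at 0.91 ± 0.20, 1.05 ± 0.14 and 1.11 ± 0.14 in Tet1, Tet2 and Tet2ΔRBD (edgeR adjusted p = 0.0305, 0.000524 and 0.000884). Max, the partner of Myc, was below input in Tet2 at -0.59 ± 0.14 (edgeR adjusted p = 0.0101). Of the upstream factors, Srf was above input in Tet2 and Tet2ΔRBD at 0.40 ± 0.12 and 0.41 ± 0.12 (edgeR adjusted p = 0.0265 and 0.0389). Of the 10 long-lived transcripts, 1 was above and 3 below input in Tet2, 3 were below in Tet2ΔRBD, and edgeR called 0 in Tet1. No gene of these lists was called between Tet2 and Tet2ΔRBD or between Tet1 and Tet2 in the edgeR fit on all libraries.

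The genes with the input pattern most like that of a transcript were searched among 8459 genes with a mean input of at least 5 TPM, by Pearson's r of log2(TPM + 1) over the 10 inputs, which share library sets. For Fos they were Bbc3 (r = 0.988), Plekhh1 (0.987) and Rasd1 (0.986). For Myc they were E130012A19Rik (0.993), Rrp8 (0.991) and Mat2a (0.989), and Myc was also close to Ier2 (0.968). For Mycn they were Kctd10 (0.986), Hes6 (0.983) and Tubb6 (0.983), and for Egr1 Psmb9 (0.972), Cited2 (0.968) and Bcat1 (0.964). By log2(IP/input) over the 10 pairs, the nearest gene was Kank2 for Fos (0.972), Mib2 for Mycn (0.97) and Ppp1cc for Egr1 (0.960).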

How the data were processed

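The 10 transcripts and the gene lists were chosen with earlier results of these data known, and all 10 are named. From the other lists, at most the 4 genes called with the largest fitted values per comparison were open to naming, and the 3 genes most like Fos, Egr1, Myc and Mycn. By the paper's methods, reads matching rRNA or tRNA were removed with Bowtie2 and the rest trimmed with Trimmomatic. The remaining reads were mapped to mm9 and counted with RSEM on RefSeq transcripts (versions are not given in the sources used here). The authors deposited an expected count per gene, not normalized, and a TPM value with 1 added, which was subtracted here to print TPM. FPKM values were not used. Deposited expected counts were rounded, normalized by TMM and tested with edgeR 4.0.16 (R 4.3.3, quasi-likelihood, Benjamini-Hochberg) on genes with at least 1 CPM in at least 2 libraries. SE is the fitted value over the square root of F. The first model used all 20 libraries, blocked by IP/input pair, with a separate log2(IP/input) for every line (13710 genes, 7 residual degrees of freedom), and the other the 10 inputs, with line and library set (13310 genes, 5). IP and input with the same replicate number deviated together from their group means (r = 0.61 to 0.86 in Tet2, 0.58 to 0.85 in Tet2ΔRBD and 0.18 in the 2 Tet1 pairs, which give r of equal size and opposite sign for different numbers), and different numbers gave r of -0.70 to 0.78 in Tet2 and -0.74 to 0.69 in Tet2ΔRBD. Replicates 3 and 4 differed by more than sampling noise and were kept apart. DESeq2 1.42.0, limma 3.58.1 on TPM, other filters and blocks, and each replicate left out were alternatives.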

Additional observations from a re-analysis of the deposited data

Results flagged for a closer look

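In 6 of 60 groups of 4 libraries or pairs tested, 1 library stood apart from the other 3. Each group held 1 library or pair of set A, 1 of set B and 2 of set C, and levels differed between sets. The usual rate of chance flags, about 1 group in 20, assumes 4 like values and so cannot be applied here. Each flagged library lay in library set A or B. In set A these were Fos at 16.1 TPM and Jun at 15.2 TPM in Tet2ΔRBD IP, and Ier3 at 89.6 TPM in Tet2 IP. In set B they were Egr1 at 19.8 TPM in Tet2 IP, Egr1 at 38.2 TPM in Tet2ΔRBD input and Junb at 52.1 TPM in Tet2ΔRBD input.

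Atf3 was below input in both Tet1 pairs and above it in all 4 pairs of Tet2 and of Tet2ΔRBD, on the log2(TPM + 1) scale. The mean ratio differed by -0.40 between Tet1 and Tet2, where the edgeR fit gave -0.37 (adjusted p = 0.940), and by -0.58 between Tet1 and Tet2ΔRBD, a difference that was not tested.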

How the results depend on the processing

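No transcript was called between Tet2 and Tet2ΔRBD or between Tet1 and Tet2 under any alternative run, including the replicate block across lines (0 called). For Tet1 against Tet2, the planned IP fit in set C only called 0 as well, beside 314 of 13379 genes. In Tet1, DESeq2 called 1 of the 10, beside 1578 of 13710 genes. A fit on Tet1 alone, with 1 residual degree of freedom, called 6, beside 6985 of 12691 genes. In Tet2, the count was 0 without the replicate block and 0 without library set A, beside 375 of 13710 and 2822 of 13490 genes. It was 2 and 4 with limma on log2(TPM + 1) and log2(TPM + 0.1), and 2 with limma on centred values. These limma fits called 5914, 5933 and 4815 of 13710 genes. With single replicates left out it ranged from 0 to 1, beside 2690 to 3623 genes. In Tet2ΔRBD, the count was 2 with DESeq2 and 3 with limma at either pseudocount, beside 3281, 3853 and 4009 of 13710 genes. It was 0 without the filter (2342 of 19601 genes), without the block (46 of 13710) and on Tet2ΔRBD alone (748 of 13260). It was also 0 with replicates 3 and 4 merged (1060 of 13610) and without library set A (1145 of 13490). With single replicates left out it was from 0 to 1, beside 795 to 2750 genes. The transcripts called by limma on TPM without centring, Jund and Ier3 among them, were above input, and Egr1 was not called. In Tet2ΔRBD, Mycn turned from -0.28 to 0.00066 with limma on log2(TPM + 0.1).

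In the inputs, the count for Tet2ΔRBD against Tet2 was 4 with DESeq2, 0 without the library set term, 0 with the replicate block, 5 without library set A, 5 in set C only, and 1 to 5 with single replicates left out. For Tet1 against Tet2 it was 0 without the library set term, where Jun turned to -0.42 and Mycn to -0.21, 6 in set C only, with Junb and Egr1 added, and 1 to 5 with single replicates left out. For library sets it was 9 to 10, beside 9935 to 11619 genes. Over all genes, Tet2ΔRBD against Tet2 inputs gave 858 of 13310 with DESeq2, 0 without the library set term and 5 of 13178 with the block. It gave 635 of 13119 without library set A and 2715 of 12999 in set C only, beside 418 of 13310. With single replicates left out it gave 33 to 1516. Tet1 against Tet2 inputs gave 54 of 13310 genes without the library set term and 6477 of 12999 in set C only, beside 4191 of 13310. With single replicates left out it gave 1737 to 5791.

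Above input in every pair, none passed at 1.5-fold in Tet1, Tet2 or Tet2ΔRBD (0 each). By group means, 9 passed in Tet2 and 8 in Tet2ΔRBD. Centred, 1 passed in Tet2, against 27.9% of expressed genes. No count over all genes was made by group means or with single pairs left out. With single pairs left out, the counts were 6 to 7, 5 to 7 and 4 to 9. The cause of these shifts was not tested. The centred values, the fits without library set A and the input fits in set C only were chosen after seeing the data. The lowest input count of Atf3, 49, limits its precision, and the 43 and 53 counts in Tet1 IP limit that of Fos.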
